A study of Mus musculus with 8 samples.

Results

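Clustered short H3K9me3 peaks are brief stretches of this mark that lie in tight runs along a chromosome, and 777 of the 14596 H3K9me3 peaks of wild-type (WT) mouse embryonic fibroblasts (MEF) were of this kind. They were selected on the WT peak lists themselves. Peaks on chromosomes 1 to 19, outside 145 to 148 Mb of chromosome 4, were joined into a chain where neighbours lay at most 5 kb apart. A peak was taken as a clustered short peak when its chain held 5 or more peaks, its length was under 1500 bp and no base of it lay in a WT H4K20me3 peak. The rule could reach 13608 peaks. Of the 149 chains of 5 or more peaks, 141 held at least 1 clustered short peak and are described here, while 8 held none.

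The peaks come from chromatin immunoprecipitation and sequencing of MEF, fibroblasts taken from mouse embryos. KAP1 KO cells were profiled for H3K9me3 and H4K20me3, and WT cells for H3K9me3, H4K20me3 and KAP1, with 1 library per group, and 3 input libraries were not analysed here. How the knockout was made and how many embryos gave cells is not given in the sources used here. KAP1 was not profiled in the KO cells and peak lists hold no marker genes, so neither the knockout nor the cell type was checked.

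KAP1 (TRIM28) is brought to its targets by DNA-binding zinc finger proteins with a KRAB domain. It recruits SETDB1, the enzyme that writes H3K9me3, and HP1 proteins, which read the mark. H4K20me3 is written by SUV420H enzymes that HP1 can recruit, so both marks are often found together in heterochromatin. In mouse cells this system is known for silencing endogenous retroviruses and for marking clusters of zinc finger genes.

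The lists held 3176 H3K9me3 peaks in KO and 14596 in WT, 8920 H4K20me3 peaks in KO and 11295 in WT, and 372 KAP1 peaks. The files give no read numbers, so the depth behind a peak is unknown and a shallower library gives fewer peaks at the same threshold. Each peak carries the authors' own score, which starts near 50 in every list and is used here to rank and group peaks within a list. A peak is called kept where it shared 1 bp or more with a KO H3K9me3 peak and lost otherwise, and lost means that no peak was called there. Ranges in parentheses beside a share are its 95% Clopper-Pearson interval (exact). They cover counting error over peaks only and are too narrow, because peaks of 1 chain are not independent. With 1 library per group no difference has a replicate check and no test was made.

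The chains differed widely in span and in how much of it was called. Their median span was 7490 bp, with a lowest of 2884 and a highest of 36241 bp. The number of peaks per chain had a median of 6 and a highest of 22. Exactly 5 peaks made up 69 of the 141 chains, and 13 chains held 10 or more. The chains held 944 WT peaks in all. Besides the 777 clustered short peaks these were 135 peaks that carried H4K20me3 and 32 peaks of at least 1500 bp without it. Called peaks covered a median of 49.98% of a chain's span, from 22.4 to 96.5%. The median gap between neighbours was 443 bp, and 386 of 803 gaps (48.1%) measured at most 400 bp, the upper end of the fragment sizes that the protocol in the labels gives. Gaps over 4500 bp, close to the limit of the rule, numbered 6.

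The clustered short peaks scored somewhat above the middle of their list. They had a median score of 82.6 and a median length of 493 bp, against 74.8 and 458.5 bp for the whole WT H3K9me3 list and 68.2 and 422 bp for the 6419 isolated short peaks, which met the same length and H4K20me3 limits but had no neighbour within 5 kb. In the same chains, the peaks that carried H4K20me3 had a median score of 210 and a median length of 900 bp, and the long peaks without it had a median score of 394. These values follow in part from the rule. At its edges, the 9 clustered short peaks within 100 bp below the length limit had a median score of 303 with 0 kept, and the 5 peaks within 100 bp above it had a median score of 330 with 1 kept. Clustered short peaks in chains of exactly 5 had a median score of 82.0, and short peaks in chains of 4 a median of 77.1.

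Clustered short peaks lay on 18 of the 19 chromosomes, with none on chromosome 14. Chromosome 10 held 115 of them, or 10.7% of its reachable H3K9me3 peaks, and chromosome 17 held 105, or 10.4%. Chromosomes 9 and 6 had the lowest shares above 0, at 1.36 and 1.41%. A single window of 1 Mb, from 81 to 82 Mb of chromosome 10, held 98 clustered short peaks.

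Some chains stood in company. When chains at most 100 kb apart were grouped, a distance chosen after the data had been seen, 31 of the 141 chains fell into 9 stretches and 110 stood alone. The largest stretch, on chromosome 10 from 81337698 to 81616720, held 6 chains with 69 clustered short peaks. Next to it, from 81177053 to 81229220, another 2 chains held 23. A stretch of 6 chains on chromosome 17, from 17117489 to 17403949, held 35, and one of 6 chains on chromosome 2, from 150016128 to 150301769, held 34. No KO H3K9me3 peak was called in any chain of these 4 stretches, while KAP1 peaks were called in 1 chain of the largest and in 2 of the stretch on chromosome 17. Of the 9 stretches, 2 had a KO H3K9me3 peak in a chain.

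Most clustered short peaks had no counterpart in KO cells. Of the 777, 39 were kept and 738 were lost, a share kept of 5.02% (3.59 to 6.80%), where 2.43% of all 13608 reachable WT peaks were kept. Over the 141 chains, H3K9me3 peaks covered 58.5 kb in KO and 700.4 kb in WT, of 1399.7 kb of span. The KO list placed 49 peaks in these spans, and 42 of the 49 touched a WT peak of the chain. A KO H3K9me3 peak lay in the span of 14 chains (9.93%, 5.54 to 16.1%), against 4.35% of all 2480 chains of 2 or more peaks. The share rose with chain size, at 3.32% of chains of 2, 4.59% of chains of 3 and 7.04% of chains of 4. The part of span was not tested. In 129 chains every clustered short peak was lost.

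The strongest clustered short peaks were among the lost, as were most of all 777. The highest score, 456, belonged to a peak on chromosome 1 from 172993820 to 172995076, in a chain of 20 peaks. A peak on chromosome 8 (125698168 to 125699650) scored 444. Next came those on chromosome 1 (90072764 to 90074004) with 443, on chromosome 8 (86029936 to 86031059) with 395, and on chromosome 1 (173010006 to 173011478) with 381. None of these 5 was kept, and of the 50 with the highest scores 1 was kept, against 39 of all 777. The one at 90072764 also lay on a KAP1 peak, of score 54.1.

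Of the 6 chains with most clustered short peaks, 4 held no KO H3K9me3 peak, 1 was called in part and 1, on chromosome 7, was called along most of its length. A chain on chromosome 10 from 81195536 to 81229220 held 0 KO peaks and 20 WT peaks over 33685 bp, 19 of them clustered short peaks with scores from 51.8 to 225. A second on chromosome 10, from 81356174 to 81388968, held 0 KO peaks and 22 WT peaks, 19 of them clustered short peaks. On chromosome 1, from 172993820 to 173015598, 0 KO peaks stood against 20 WT peaks, with 17 clustered short peaks of median score 155, and called peaks covered 74.1% of that span in WT. Another chain on chromosome 10 (81556756 to 81581156) had 0 KO and 16 WT peaks, with 14 clustered short peaks. The fifth, on chromosome 7 from 67004040 to 67040280, went the other way, with 18 KO and 16 WT peaks and all 13 clustered short peaks kept, and is described further with the kept peaks. A chain on chromosome 3, from 93007758 to 93023782, was called in part, with 3 KO and 14 WT peaks, and 2 of its 13 clustered short peaks were kept. The third longest span, 33435 bp on chromosome 13 from 12900032 to 12933466, was made mainly of other peaks, since 6 of its 10 WT peaks were long and 3 were clustered short peaks. It held 0 KO H3K9me3 peaks, but 2 H4K20me3 peaks were called there in KO, with a top score of 88.3, and 2 in WT, with a top score of 441.

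**Figure D1:**
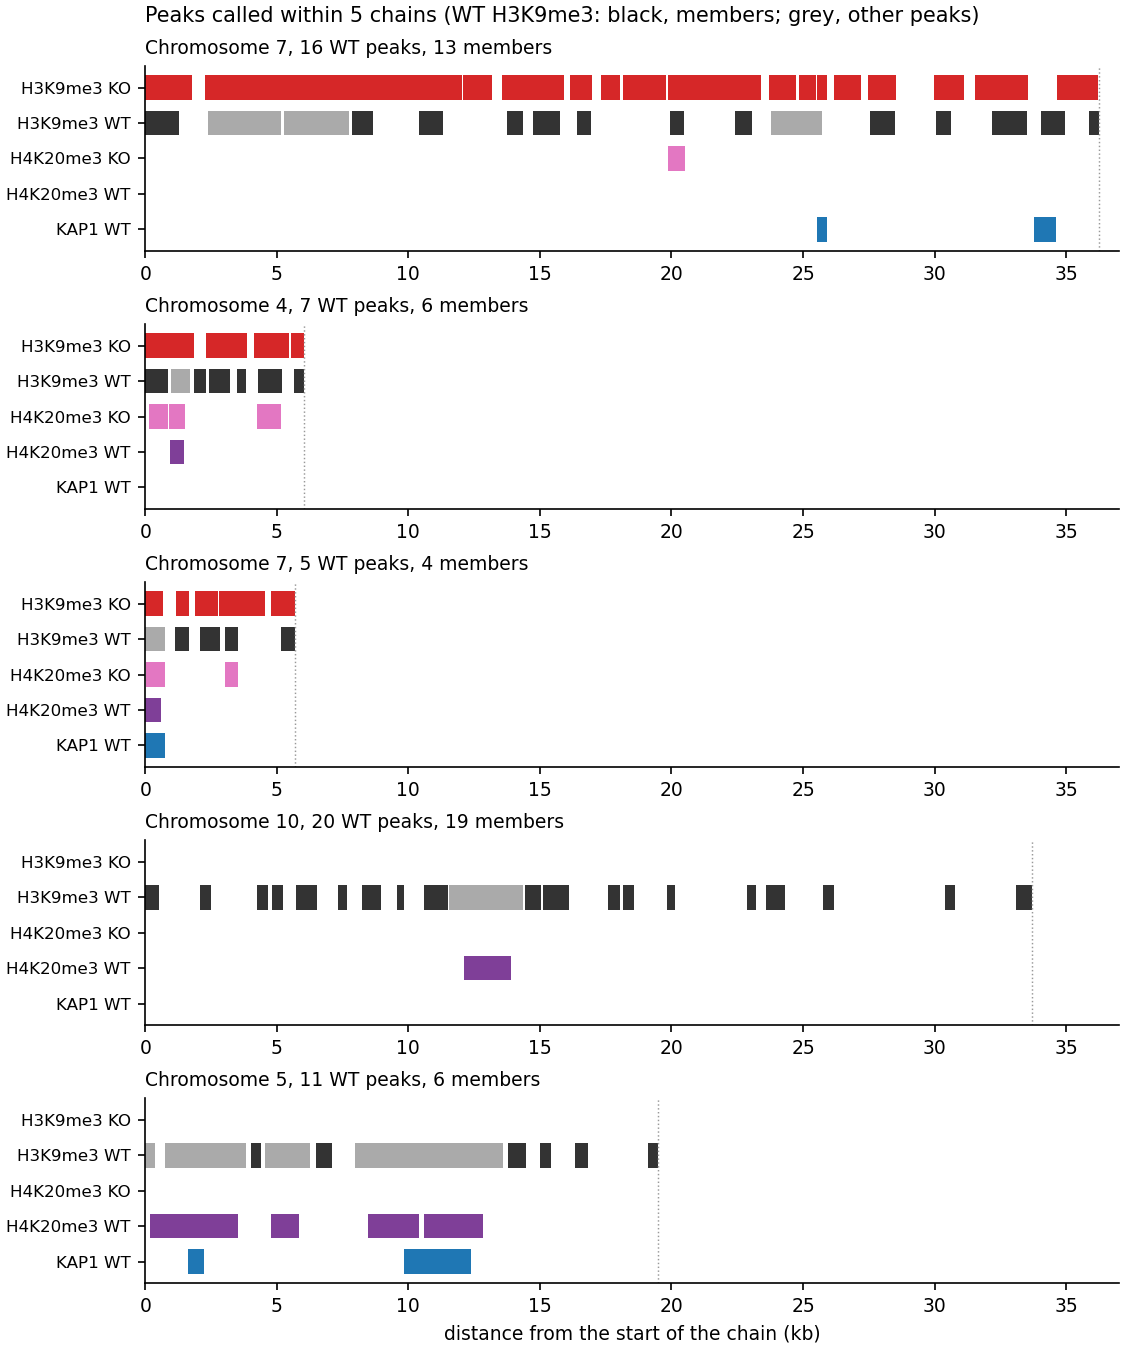
Peaks of each list within 5 chains, drawn to scale against the distance from the chain's start in kb, with black boxes for clustered short peaks, grey boxes for other WT H3K9me3 peaks and a dotted line at the chain's end. The upper 3 chains, those with most kept peaks, carry KO H3K9me3 peaks along most of their length, while the chain with most clustered short peaks (chromosome 10) and the chain with the strongest KAP1 peak (chromosome 5, bottom) have none.

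The kept peaks were gathered in a few chains. All 39 lay in 12 chains on 8 chromosomes, and 29 of the 39 (74.4%) lay in 5 chains. The largest group was the chain on chromosome 7 from 67004040, the longest of all at 36241 bp, with all 13 of its clustered short peaks kept. Called H3K9me3 peaks covered 84.2% of this span in KO and 48.7% in WT. Its KO scores reached 989, while its clustered short peaks had WT scores from 51.7 to 143, and scores of separate lists are not on 1 scale. The second was on chromosome 4 from 3102862 to 3108903, with 4 KO and 7 WT peaks and all 6 clustered short peaks kept. Coverage there was 86.6% in KO and 75.2% in WT. The third was on chromosome 7 from 12595651 to 12601335, with 5 KO and 5 WT peaks, all 4 clustered short peaks kept, and coverage of 82.5% in KO and 53.4% in WT. These were the 3 chains in which every clustered short peak was kept, and the pair on chromosome 7 holds all 17 clustered short peaks of that chromosome.

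The next chains were kept in part. On chromosome 17, from 8101276 to 8105637, 3 of 5 clustered short peaks were kept, with 2 KO and 5 WT peaks. On the same chromosome, from 3021771 to 3034228, 3 of 4 were kept, with 5 KO and 6 WT peaks. A neighbouring chain from 3004176 to 3015448 kept 2 of 4. The lowest position of any listed peak was 3004176 on chromosome 17 and 3000000 on chromosome 4, so that pair and the chain on chromosome 4 from 3102862 lie near the low end of the listed sequence. So does the single chain on chromosome 18, from 3041156 with a lowest listed position of 3007399, and it kept 0 of 7. Of the other 6 chains with a kept peak, those on chromosomes 3 and 4 kept 2 each, and those on chromosomes 5, 9, 11 and 12 kept 1 each.

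**Figure D2:**
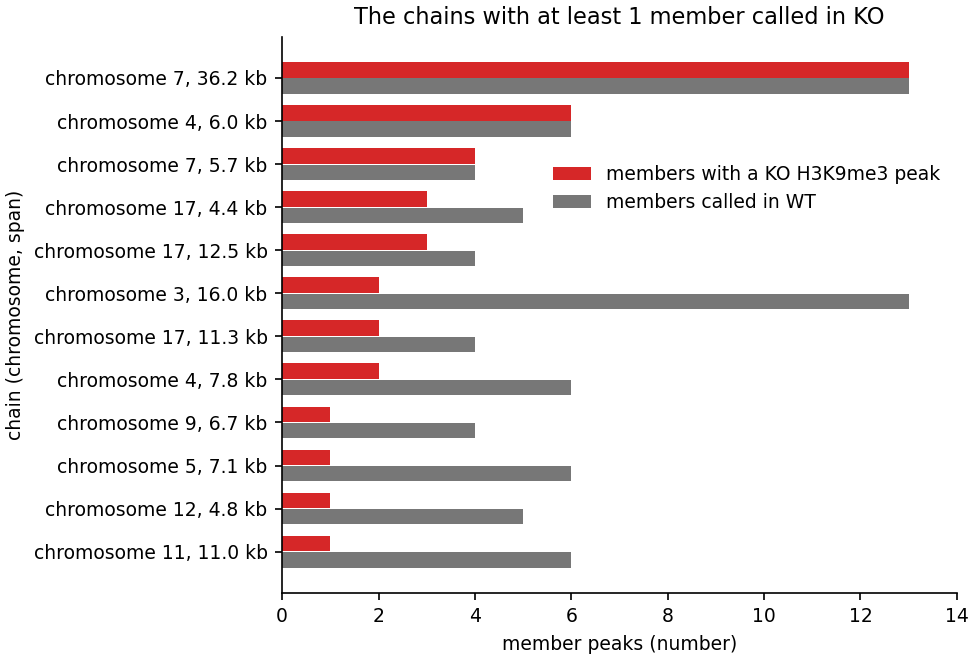
Number of clustered short peaks with a KO H3K9me3 peak (red) and number called in WT (grey) in each of the 12 chains with at least 1 kept peak, labelled by chromosome and span in kb. All clustered short peaks were kept in the upper 3 chains (13, 6 and 4), and between 1 and 3 in each of the others.

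Some KO peaks bridged neighbouring clustered short peaks. The 39 kept peaks met 33 KO peaks, and 8 of the 33 (24.2%) overlapped 2 or more of them by at least 1 bp each. These 33 KO peaks had a median length of 1048 bp and a highest of 9745 bp. The 2 clustered short peaks with the highest KO score, on chromosome 7 from 67014457 to 67015371 and from 67011905 to 67012688, lay under the same KO peak of score 989, with WT scores of 64.0 and 67.7. The next 2, on chromosome 4 from 3104706 to 3105168 and from 3102862 to 3103709, touched the same KO peak of score 618, with WT scores of 78.2 and 133. The one at 3104706 met it only at its edge. Counted from the chain's start, that WT peak ran from 1844 to 2307 bp and the KO peak ended at 1860 bp. The fifth, on chromosome 7 from 67023999 to 67024516, had a KO score of 526 and a WT score of 143. Kept clustered short peaks were longer than lost ones in WT, with a median of 753 bp for kept and 481 bp for lost peaks, and median WT scores were 90.9 for kept and 81.8 for lost peaks. Longer peaks meet another list more easily, and the part of length was not tested.

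Few KO peaks within the chains stood wholly apart from WT peaks. Of the 49 KO peaks, 7 touched no WT peak of the chain, and 5 of the 7 lay in the long chain on chromosome 7. KO peaks that touch a WT peak can reach beyond it and are not in this count. In that long chain, KO peaks covered 30532 bp and WT peaks 17633 bp. When the KO list was joined by the same rule it gave 33 chains of 5 or more peaks, and 4 of these overlapped a chain described here, 1 each on chromosomes 4 and 17 and 2 on chromosome 7. In the reachable stretch, 266 of 2849 KO peaks (9.34%) and 992 of 13608 WT peaks (7.29%) stood in chains of 5 or more.

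The comparison with isolated short peaks depended on those few chains. The share kept was 5.02% (39 of 777) for clustered short peaks and 1.43% (92 of 6419, 1.16 to 1.75%) for isolated ones. Without the long chain on chromosome 7 it was 3.40% (26 of 764), and without the 5 chains with most kept peaks 1.34% (10 of 745, 0.646 to 2.45%), near the isolated share. Dropping those chains uses the measured outcome and describes where the kept peaks lay. By chromosome, the clustered share was above the isolated share on the 8 chromosomes with a kept clustered short peak. On the other 10 it was 0, so this count only restates on which chromosomes the kept peaks lay. Within quintiles of WT score, the clustered share was above the isolated share in each, from 1.75 against 1.10% in quintile 2 to 6.11 against 2.66% in quintile 5. Chains were also rebuilt with each list limited to scores of 100 and above. Scores are not on 1 scale between lists (median 62.95 in KO and 74.8 in WT H3K9me3), so 1 limit can thin them unequally. It also shortened the WT H4K20me3 list, so peaks on weaker H4K20me3 could enter. With this limit, 1 of 105 clustered (0.952%, 0.0241 to 5.19%) and 37 of 2500 isolated short peaks (1.48%, 1.04 to 2.03%) were kept. For equal numbers of highest-scoring peaks they were 1 of 47 (2.13%, 0.054 to 11.3%) and 45 of 1577 (2.85%, 2.09 to 3.8%). The clustered share was the lower in both, but each rests on 1 kept peak and its interval holds the isolated share. Rebuilding also changes which peaks count as clustered and as isolated, so these are not the groups compared above.

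**Figure D3:**
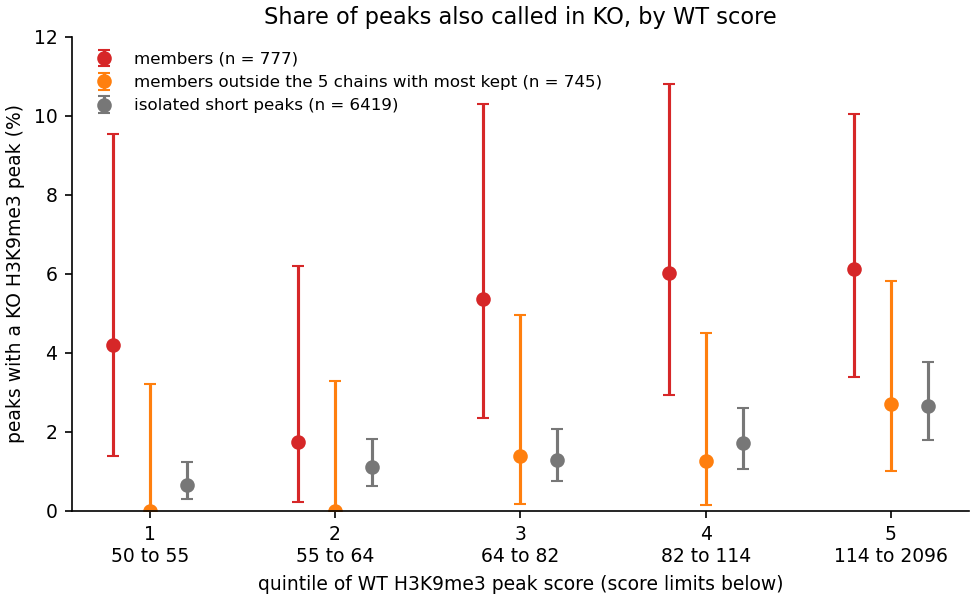
Percent of WT H3K9me3 peaks that overlap a KO H3K9me3 peak in each quintile of WT score, for clustered short peaks (red), those outside the 5 chains with most kept peaks (orange) and isolated short peaks (grey), with exact 95% intervals over peaks. The red points lie between 1.75 and 6.11%, and the orange points lie at 0 in quintiles 1 and 2 and at 2.71% in quintile 5, beside 2.66% for isolated peaks.

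The share kept was highest in the chains of most peaks, again through chromosome 7. In chains of 10 or more it was 9.49% (15 of 158), of which 13 were in the long chain on chromosome 7. In chains of 7 to 9 it was 3.47%, in chains of 6 it was 5.60%, and in chains of 5 it was 3.42%. Short peaks without H4K20me3 in smaller chains gave 2.84% in chains of 4, 1.75% in chains of 3 and 52 of 2859 in chains of 2. Outermost clustered short peaks of a chain were kept in 9 of 236 cases (3.81%) and inner ones in 30 of 541 (5.55%), with overlapping intervals (1.76 to 7.12% and 3.77 to 7.82%).

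KAP1 was seldom called on the clustered short peaks themselves. A KAP1 peak lay on 5 of 777 (0.644%, 0.209 to 1.50%), where 1.34% of all reachable WT peaks had one and 35 of 6419 isolated short peaks (0.545%) did. Among short peaks without H4K20me3 in chains of 2 to 4 peaks, 65 of 4966 (1.31%) had one. Of the 5 clustered short peaks with KAP1, 1 was the peak on chromosome 1 named above. A pair on chromosome 11, from 11925364 to 11926367 and from 11926476 to 11927462, shared a KAP1 peak of score 1122. The others lay on chromosome 7 from 67038099 to 67039011, with a KAP1 score of 60.6, and on chromosome 9 from 89774322 to 89774844, with a KAP1 score of 1014. Those on chromosomes 7 and 9 were kept and the other 3 were lost. The one on chromosome 9 had a KO score of 156 and a WT score of 126. Its KAP1 peak lay on a KO H3K9me3 peak, while the KAP1 peak of score 60.6 on chromosome 7 touched none.

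KAP1 was called in some chains, mostly on their other peaks. A KAP1 peak lay in the span of 18 of 141 chains (12.8%, 7.74 to 19.4%), against 4.11% of all chains of 2 or more peaks, 3.07% of chains of 2, 4.02% of chains of 3 and 5.63% of chains of 4. The 18 chains with KAP1 had a median span of 11780 bp, against 7404 bp for the 123 without, and the part of span was not tested. In 4 of the 141 chains (2.84%) a KAP1 peak lay on a clustered short peak. Of the 22 KAP1 peaks in these spans, 14 lay on a peak that carried H4K20me3, 5 on a long peak without it and 4 on a clustered short peak, 1 of them on 2 of these kinds. None of the 22 lay between the peaks (0 to 15.4%). Seen from the chains, 0.644% of clustered short peaks had KAP1, against 14 of 135 H4K20me3-carrying peaks (10.4%, 5.79 to 16.8%) and 5 of 32 long ones (15.6%, 5.28 to 32.8%). Those neighbours are longer and score higher, and the part of length and score was not tested.

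**Figure D4:**
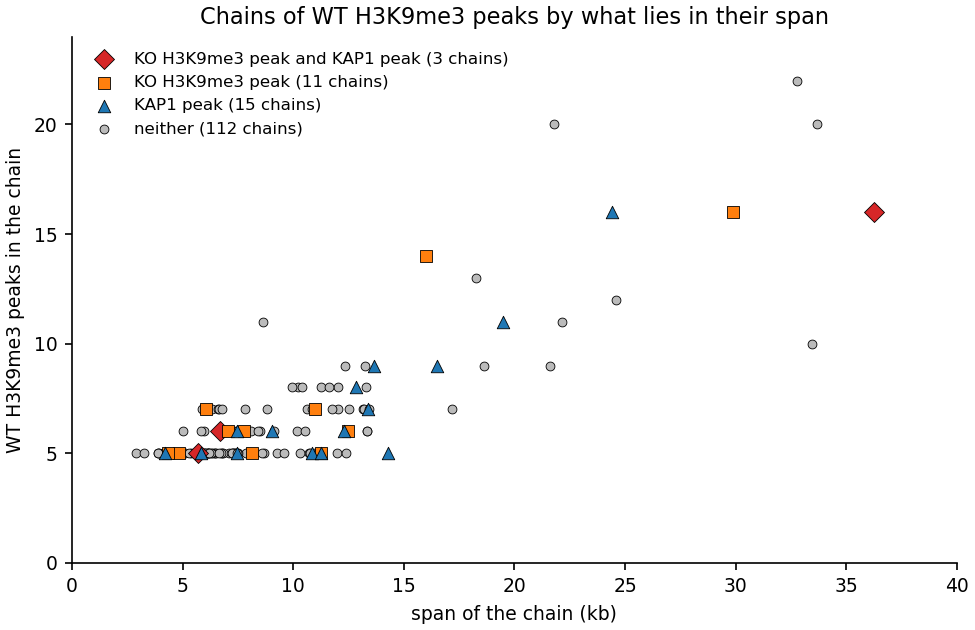
Number of WT H3K9me3 peaks in each of the 141 chains against its span in kb, marked by whether a KO H3K9me3 peak, a KAP1 peak, both or neither lies in the span. The 112 chains with neither cover the whole range, including the 3 with most peaks, and the chain with the longest span (36241 bp) is 1 of 3 with both.

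The 5 chains with the strongest KAP1 peaks held no KO H3K9me3 peak, as did 127 of all 141 chains. On chromosome 5, from 144004837 to 144024313, the top KAP1 score was 3100, and 0 KO and 11 WT H3K9me3 peaks were called, 6 of them clustered short peaks of median score 69.5. In the chain at 79966132 to 79979804 of chromosome 8 KAP1 scored 2931, with 0 KO and 9 WT peaks, and 8 clustered short peaks. On chromosome 10, from 79196967 to 79206000, KAP1 scored 1585.5, with 0 KO and 6 WT peaks, of which 1 was a clustered short peak. On chromosome 13, from 64267210 to 64274650, KAP1 scored 1166, with 0 KO and 6 WT peaks, and 5 clustered short peaks. On chromosome 11, from 11923247 to 11927462, KAP1 scored 1122, with 0 KO and 5 WT peaks, all clustered short peaks, and this was the only one of the 5 chains whose KAP1 peak lay on clustered short peaks. The next chain by KAP1 score, on chromosome 9 from 89769982 to 89776689 with 1014, held 2 KO and 6 WT peaks, and 1 of its 4 clustered short peaks was kept.

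The share kept was also compared between chains with and without a KAP1 peak. In chains with KAP1, 18 of 101 clustered short peaks were kept (17.8%), and in chains without KAP1, 21 of 676 (3.11%). Of the 18, 17 lay in the 2 chains on chromosome 7. Without the 3 chains with most kept peaks, 1 of 84 was kept with KAP1 (1.19%, 0.0301 to 6.46%) and 15 of 670 without (2.24%, 1.26 to 3.67%). Those 3 chains were picked by the measured outcome and include both on chromosome 7. The drop with KAP1 therefore follows from the choice and only describes where the kept peaks lay. By number of chains, 3 of 18 with KAP1 and 9 of 123 without had a kept clustered short peak. The KAP1 peaks of both chromosome 7 chains scored at most 70.4, and 3 of the 22 KAP1 peaks lay on a KO H3K9me3 peak.

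Clustered short peaks were also closer to KAP1 than isolated ones. Of the 777, 91 (11.7%, 9.54 to 14.2%) lay within 10 kb of a KAP1 peak, against 68 of 6419 isolated short peaks (1.06%, 0.824 to 1.34%) and 3.29% of all 13608 reachable WT peaks. In the same chains the share was 19.3% for H4K20me3-carrying peaks (26 of 135) and 18.8% for long peaks without it (6 of 32). Within 100 kb the numbers were 167 clustered (21.5%) and 289 isolated (4.50%), against 7.25% of all reachable peaks. In chains of 2 to 4 peaks, 170 of 4966 short peaks without H4K20me3 (3.42%) lay within 10 kb and 325 (6.5%) within 100 kb. All 35 of the stretch on chromosome 17 from 17117489 to 17403949 were among the 167. So were all 12, 14 and 6 of the chromosome 10 chains from 81512784, 81556756 and 81610403, whose nearest KAP1 peak scored 51.3. Median distances to the nearest KAP1 peak were 1137285 bp for clustered and 2308916 bp for isolated short peaks, so most of both lay far from any called KAP1 site. Peaks of 1 chain share their nearest site and are not independent in this count. For KO H3K9me3 peaks, 87 clustered (11.2%) and 238 isolated short peaks (3.71%) lay within 10 kb, against 5.42% of all reachable peaks.

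H4K20me3 in KO was rare on the clustered short peaks, which were chosen to lack it in WT. A KO H4K20me3 peak lay on 5 of 777 (0.644%, 0.209 to 1.50%), with scores from 51.8 to 109. All 5 were also kept for H3K9me3. They lay in 4 of the 5 chains with most kept peaks, 2 of them in the chain on chromosome 4 from 3102862 and 1 in each of the others. Of all reachable WT H3K9me3 peaks, which include those with H4K20me3 in WT, 0.911% had a KO H4K20me3 peak. Among short peaks likewise without it in WT, 14 of 6419 isolated ones (0.218%, 0.119 to 0.366%) had one. In chains of 2 to 4 peaks, 11 of 4966 such peaks (0.22%) did. In the chains' spans, 11 H4K20me3 peaks were called in KO and 134 in WT. A WT H3K9me3 peak with H4K20me3 was present in 58 chains and absent from 83. Clustered short peaks were kept in 11 of 301 cases in chains with such a neighbour (3.65%, 1.84 to 6.44%). Of these 11, 6 lay in the chain on chromosome 4 from 3102862 and 4 in the chain on chromosome 7 from 12595651. In chains without such a neighbour, 28 of 476 were kept (5.88%, 3.94 to 8.39%), 13 of the 28 in the long chain on chromosome 7.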

How the data were processed

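Peak lists of 5 ChIP libraries were analysed. Per the submitters' processing notes, the tools were CASAVA 1.82, Bowtie2 2.2.1 and MACS 1.4, and the build was mm9. The calling parameters, and the control used for each histone mark, are not stated in those notes. The KAP1 calls set 1 WT KAP1 library against 1 WT MEF library, per the file headers. The deposited score of each peak is the authors' value and is not comparable between lists.

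Positions are as deposited, printed counting from 1. Chains, overlaps and shares were computed with Python 3.11.15, numpy 2.4.6, pandas 2.3.3 and scipy 1.17.1, and figures drawn with matplotlib 3.10.9. On 24585 simulated peaks 0 calls were wrong, and 0 overlap calls differed from bedtools 2.31.1. The rule, the lists and the comparisons were chosen with earlier results of these data known. Named regions are the chains with most clustered short peaks, longest span, strongest KAP1 peak and most kept peaks, and the clustered short peaks with the highest WT and KO scores. The gene tables at hand are of another build than mm9, so regions are given by position, without genes or sequences. The alternatives changed the overlap, score limit, list length, gap, chain size, length limit and H4K20me3 filter, or left out parts of the genome.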

Additional observations from a re-analysis of the deposited data

How the results depend on the processing

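Of 78 values of 6 shares under 14 alternatives, 56 stayed within the 95% interval of the reported value, among them every value with a gap of 2 or 10 kb, a length limit of 1000 bp, a required overlap of 50% of the peak, or without the densest 1 Mb window or chromosome. A further 4 values, of isolated short peaks under other chain sizes or without chains, could not change and are not counted. The 2 alternatives that leave out the chains with most kept peaks were added after the data had been seen. The cause of the shifts was not tested where the change of peaks does not give it.

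The share of clustered short peaks kept was 7.08% within 1 kb, 0.952% with all lists limited to scores of 100 and above, 2.13% for equal numbers of highest-scoring peaks, 2.91% in chains of 3 or more, 9.49% in chains of 10 or more, 3.40% without the chain with most kept peaks and 1.34% without the 5 such chains. Within 1 kb, KAP1 was found at 2.57% and KO H4K20me3 at 1.93% of them, and 1.95% of isolated short peaks were kept. With H4K20me3-carrying peaks included, KAP1 was at 1.54% and KO H4K20me3 at 1.87%. KAP1 and KO H4K20me3 were both at 0 of 105 with that score limit and at 0 of 47 for equal numbers, where 2.85% of isolated short peaks were kept and 0 of 9 chains had KAP1. KO H4K20me3 was at 0 of 745 without the 5 chains with most kept peaks. KAP1 lay in 5.76% of chains of 3 or more. In chains of 10 or more, 3 of 13 (23.1%) had KAP1 and 3 of 13 (23.1%) a KO H3K9me3 peak. No alternative of at least 50% overlap was run for spans of chains. Lists without read numbers leave the limit set by depth unknown.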
